A study of Mus musculus with 14 samples.

Results

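The 10 genes described here flank Sirt7 on mouse chromosome 11. They are Hgs, Mrpl12, Slc25a10, P4hb, Arhgdia, Alyref, Anapc11, Pcyt2, Mafg and Aspscr1. They were taken by symbol from a table of 24015 genes. All 10 were in the table, and all 10 were among the 15666 genes with enough reads to be tested. The choice rests on chromosome position and used no measured value. It is not a full list of the neighbours, since other genes lie between the members.

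The study sequenced RNA of mouse embryonic fibroblasts, connective-tissue cells grown from embryos, to ask how SirT7 bears on the response to glucose starvation. All cells were of strain 129s2, came from embryos of day 14.5 and were used at passages 3 to 4. The 4 groups were SirT7-/- cells kept for 18 hours in glucose-free medium (KO-GS, n = 3), SirT7-/- cells in normal medium (KO-NT, n = 4), wild-type cells in glucose-free medium (WT-GS, n = 3) and wild-type cells in normal medium (WT-NT, n = 4). Each library is called by its group and its labelled number, such as KO-NT 4. How the SirT7-/- allele was made, and whether replicates are separate embryos or cultures, is not given in the sources used here. The p-values therefore measure the spread between these libraries, which may be technical.

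SirT7 is a nuclear, NAD-dependent enzyme of the sirtuin family and is concentrated in the nucleolus. A gene beside a targeted locus can be read in the same libraries as the target, which shows whether RNA from the surroundings differs between genotypes. The members share a place on the chromosome and not a pathway. Pcyt2 makes CDP-ethanolamine, the step usually held to limit phosphatidylethanolamine synthesis by the Kennedy pathway. P4hb is a protein disulfide isomerase of the endoplasmic reticulum and the beta subunit of collagen prolyl 4-hydroxylase, which fibroblasts use to make stable collagen. Arhgdia is a GDP dissociation inhibitor that keeps small GTPases inactive in the cytosol. Hgs sorts ubiquitin-marked receptors on endosomes. Mrpl12 is a protein of the mitochondrial large ribosomal subunit, and Slc25a10 carries dicarboxylates across the inner mitochondrial membrane. Alyref is an adaptor for messenger RNA export, and Anapc11 is the RING subunit of the anaphase-promoting complex. Mafg is a small MAF protein that pairs with NRF2 and BACH1 on antioxidant elements, and Aspscr1 (also called TUG) tethers vesicles holding the glucose transporter GLUT4 and binds the ATPase p97.

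By RefSeq gene order the members run from Hgs, Mrpl12 and Slc25a10 through P4hb, Arhgdia, Alyref, Anapc11 and Pcyt2 to Sirt7, then Mafg and Aspscr1. With Sirt7 at position 0, Hgs stands at position -13 and Aspscr1 at position 7. Pcyt2 is the next gene beyond the 3′ end of Sirt7, on the same strand. Hgs, Mrpl12, Slc25a10, Anapc11 and Aspscr1 are on the plus strand, and P4hb, Arhgdia, Alyref, Pcyt2, Sirt7 and Mafg on the minus strand. In the GENCODE annotation, exons of Sirt7 and Mafg overlap on the same strand. Exons of Mrpl12, Slc25a10 and Aspscr1 overlap the opposite-strand genes Gm16755, Gm11788 and Gm17178, and the strand setting of the counting is not stated, so reads of such pairs cannot be told apart.

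RefSeq start windows matched the 9 members other than Pcyt2 (13 windows, each from 250 bases before to 50 after a start, build GRCm38.p6). The sequences shown are the bases before the starts of P4hb and Arhgdia, minus-strand genes with the highest log2 differences between SirT7-/- and WT among the members, and the 55 bases that part the starts of Alyref and Anapc11, a head-to-head pair that fell together in starved WT cells. Capitals mark the GC box GGGCGG and the CCAAT box CCAAT on either strand.
P4hb, chr11:120573254-120573503, minus strand: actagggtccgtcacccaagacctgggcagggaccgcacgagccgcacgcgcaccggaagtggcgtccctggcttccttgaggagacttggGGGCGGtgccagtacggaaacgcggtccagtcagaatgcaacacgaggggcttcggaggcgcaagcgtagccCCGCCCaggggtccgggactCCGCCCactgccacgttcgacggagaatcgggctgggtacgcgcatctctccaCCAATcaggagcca
Arhgdia, chr11:120581625-120581874, minus strand: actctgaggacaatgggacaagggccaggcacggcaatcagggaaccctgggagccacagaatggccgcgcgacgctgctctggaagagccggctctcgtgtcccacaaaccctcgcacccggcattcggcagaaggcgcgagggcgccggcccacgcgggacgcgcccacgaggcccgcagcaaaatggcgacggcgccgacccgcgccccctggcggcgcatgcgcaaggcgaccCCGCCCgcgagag
Alyref to Anapc11, chr11:120598366-120598420, plus strand: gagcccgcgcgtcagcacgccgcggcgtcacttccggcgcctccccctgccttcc

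The P4hb stretch holds GC boxes at -159, -87 and -67 and a CCAAT box at -14 from the start. The Arhgdia stretch holds 1 GC box, at -13, and no CCAAT box. The window of a second RefSeq start of Arhgdia, not shown, holds 8 GC boxes, some of which overlap, and no CCAAT box. The 55 bases between Alyref and Anapc11 hold neither. Over the whole 300-base windows and both strands, GGGCGG was found in 10 of the 13 member windows, in 7 of the 9 genes, against 35.7% of all 32851 windows. CCAAT was found in 7 windows of 6 genes, against 37.4% of all windows. The letters TGANNNNGC, a loose form of the antioxidant element in which N is any base, were also found in 7 windows of 6 genes, against 41.3%. The windows of Alyref and Anapc11 overlap, so some matches are the same letters counted for both genes. No member window held the unfolded protein response element TGACGTGG (0.676% of all windows) or the cAMP response element TGACGTCA (1.79%). Nor did any hold the endoplasmic reticulum stress element ERSE, a CCAAT box and a CCACG parted by 9 bases (0.119%), or its second form ERSE-II, ATTGG and CCACG parted by 1 base (0.0365%), each of which includes a CCAAT box. A match is a description of letters and does not show a bound site.

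Total counts ran from 59788270 to 91607861 per library, and levels are given as CPM, the usual scaling of counts by the library's total. Fibroblast markers fitted the label, with 25500 to 54700 CPM summed over 10 genes in every library. Macrophage markers summed to 28 to 321 CPM in KO-GS, 136 to 283 in KO-NT, 6.14 to 106 in WT-GS and 114 to 897 in WT-NT (9 genes). Epithelial markers reached 12.1 CPM with Krt5 at 0 throughout. Endothelial markers reached 22 CPM, with Kdr at up to 20 CPM and the others each at or under 3.07 CPM. Muscle markers reached 247 CPM, with Acta1 at up to 195 and Des at up to 97.2 CPM. Myod1, Myog and Tnni2 each stayed at or under 1.4 CPM. The part of any such other cells in the results below was not tested. In bulk RNA, fewer cells of a type and less RNA per cell cannot be told apart.

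Libraries of the SirT7-/- groups did not all lie with their labelled medium. Hspa5, an endoplasmic reticulum chaperone, stood at 6251, 5654 and 1066 CPM in KO-GS 1 to 3, 1556, 1437, 1457 and 6333 CPM in KO-NT 1 to 4, 6206 to 7435 CPM in WT-GS and 1065 to 1479 CPM in WT-NT. Txnip, a glucose-responsive gene, stood at 9.19, 1.772 and 118.4 CPM in KO-GS 1 to 3 and at 116.9, 113.3, 96.48 and 5.534 CPM in KO-NT 1 to 4, against 1.572 to 4.799 CPM in WT-GS and 146.4 to 220.3 CPM in WT-NT. The library labelled KO-GS 3 thus had values like normal medium, and the library labelled KO-NT 4 had values like glucose-free medium. Whether the labels of these 2 libraries are right was not tested, and every KO-GS and KO-NT mean over all libraries depends on it. Groups were kept as labelled, and results that rest on these libraries are also given without both. Because the libraries were singled out by genes of the starvation response, starvation results without them describe the remaining libraries and are not independent support. Genotype results without them are not free of this choice either, since Pcyt2 and P4hb also differed between the media in WT libraries.

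Sirt7, the targeted gene, was low in every library labelled SirT7-/-. It stood at 0.3005, 0.4747 and 0.3935 CPM in KO-GS and at 1.016, 1.391, 1.415 and 0.5567 CPM in KO-NT, against 17.60, 17.33 and 16.87 CPM in WT-GS and 17.89, 23.12, 21.42 and 18.74 CPM in WT-NT. The genotypes did not overlap. Over both media, Sirt7 fell by 4.84 on the log2 scale (SE 0.223), to 0.0348 of the WT level, with an adjusted p of 4.2e-07 by edgeR's quasi-likelihood test with Benjamini-Hochberg adjustment over all 15666 genes. Every adjusted p below comes from that test unless another tool is named, and a gene counted as called when that value was under 0.05.

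The genotype comparison over both media asks whether the neighbours differed between SirT7-/- and WT cells when the differences in glucose-free and in normal medium are averaged. Pcyt2 was lower, and P4hb and Arhgdia were higher, in SirT7-/- libraries, but none of them passed the test with all 14 libraries. Sirt7 was the only gene called (1 of 15666, 0.00638%), and 0 of the 10 neighbours were. DESeq2 called 1 neighbour, Pcyt2, among 10 genes called in all, and limma-voom called 0 neighbours and 1 gene in all. At an unadjusted p under 0.05 stood 3 neighbours, against 2.54% of all genes tested. None of the 10 had ranges that parted the genotypes over both media, which 0.0319% of all genes did.

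Pcyt2 had 7.262, 6.203 and 17.88 CPM in KO-GS and 14.26, 15.78, 14.68 and 7.205 CPM in KO-NT, against 15.81, 15.69 and 16.22 CPM in WT-GS and 62.75, 90.63, 58.38 and 58.68 CPM in WT-NT. The WT-NT libraries stood far above all others, and every SirT7-/- library lay at or under 17.88 CPM. The library KO-GS 3 exceeded WT-GS, so the genotypes overlapped over both media. The log2 difference was -1.50 (SE 0.253), or 0.354 of the WT level, with an adjusted p of 0.367 (unadjusted 5.9e-05). Only Sirt7 had a smaller p among the genes tested.

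P4hb had 2845, 3980 and 1468 CPM in KO-GS and 3411, 3365, 3348 and 2592 CPM in KO-NT, against 2585, 2390 and 2302 CPM in WT-GS and 1557, 1737, 1448 and 1398 CPM in WT-NT. All SirT7-/- libraries but KO-GS 3 exceeded all 7 WT libraries. The log2 difference was 0.62 (SE 0.181), a fold of 1.53, with an adjusted p of 1 (unadjusted 0.00492).

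Arhgdia had 574.7, 1168 and 661 CPM in KO-GS and 1537, 1569, 1629 and 643.6 CPM in KO-NT, against 524.1, 546.8 and 583.1 CPM in WT-GS and 684.8, 849, 692.7 and 609.7 CPM in WT-NT. The SirT7-/- libraries were not of one kind. KO-NT 1 to 3 and KO-GS 2 exceeded all WT libraries, while KO-GS 1, KO-GS 3 and KO-NT 4 lay within the WT range. The log2 difference was 0.73 (SE 0.221), a fold of 1.66, with an adjusted p of 1 (unadjusted 0.00593).

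**Figure D1:**
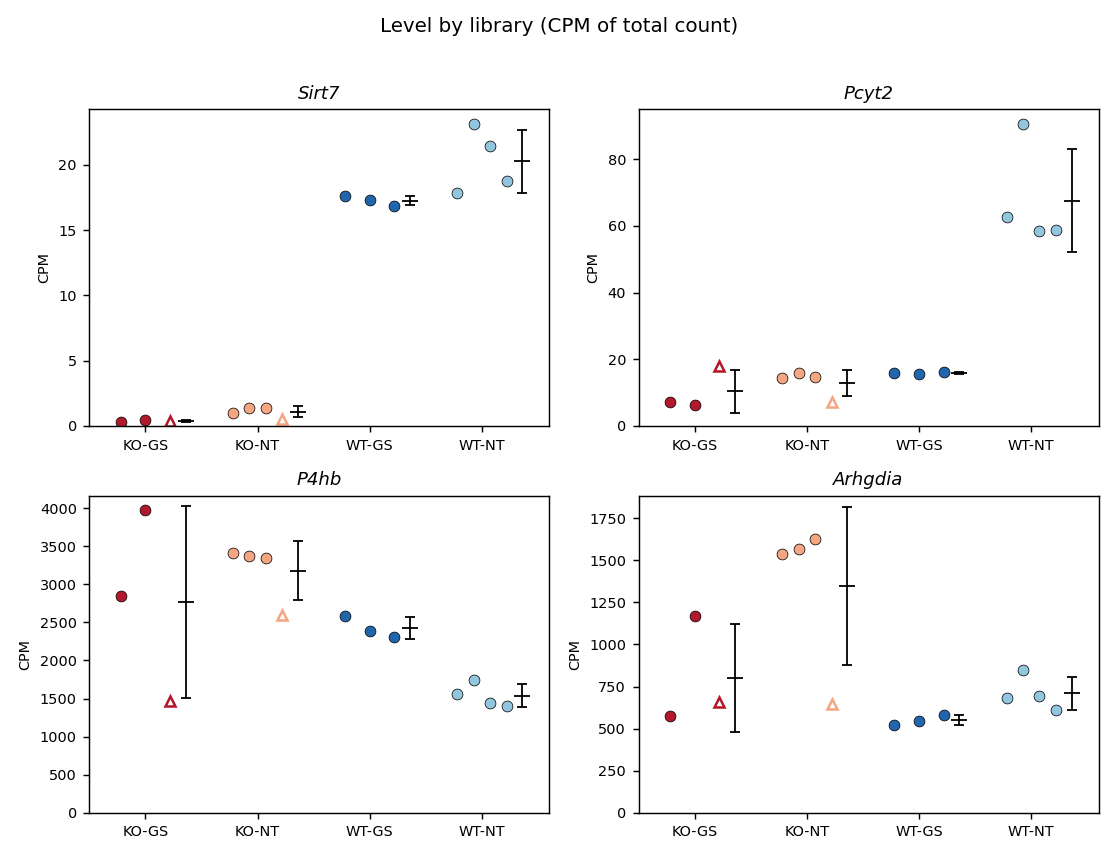
Level of Sirt7, Pcyt2, P4hb and Arhgdia in CPM (y axis, from 0) in each library, by group (x axis). Points are libraries, bars are mean ± SD, and open triangles mark KO-GS 3 and KO-NT 4. Sirt7 stays at or under 1.415 CPM in SirT7-/- libraries, and Pcyt2 is at 58.38 CPM or more only in WT-NT.

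For the other 7 members the log2 differences lay between -0.08 (Anapc11) and 0.17 (Slc25a10), with adjusted p of 1. Their 95% intervals bound the difference: -0.06 to 0.20 for Hgs, -0.26 to 0.29 for Mrpl12, -0.15 to 0.49 for Slc25a10, -0.25 to 0.36 for Alyref, -0.35 to 0.18 for Anapc11, -0.16 to 0.29 for Mafg and -0.12 to 0.25 for Aspscr1. The median absolute log2 difference of the 10 members was 0.08, against 0.09 over all genes tested.

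Without KO-NT 4 and KO-GS 3, Pcyt2 fell and P4hb rose in SirT7-/- cells over both media. Of 15864 genes tested in that fit, 3 were called (0.0189%), and they were Sirt7, Pcyt2 and P4hb. Pcyt2 fell by 1.72 on the log2 scale (SE 0.127, adjusted p = 0.00034), to 0.304 of the WT level. P4hb rose by 0.81 (SE 0.103, adjusted p = 0.0482), a fold of 1.75. Arhgdia had a larger log2 difference, 0.91, but a larger SE, 0.162, and an adjusted p of 0.528. Set beside WT cells in the medium that their markers resembled, the libraries left out lay near WT for P4hb and Arhgdia. KO-GS 3 had 0.956 times the WT-NT mean of P4hb and 0.932 times that of Arhgdia. KO-NT 4 had 1.07 and 1.17 times the WT-GS means. For Pcyt2 the ratios were 0.264 in KO-GS 3 and 0.453 in KO-NT 4. When each further library was left out in turn, Pcyt2 was called in all 12 fits. P4hb was called in 2 of the 12, without KO-GS 1 or without WT-NT 2, and Arhgdia in 1, with adjusted p from 0.00203 to 0.24 for P4hb and from 0.00203 to 0.96 for Arhgdia.

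In normal medium the log2 differences of these 3 genes lay farther from 0 than over both media. Pcyt2 averaged 12.98 ± 3.91 CPM in KO-NT and 67.61 ± 15.5 CPM in WT-NT (SD, n = 4 each), with no overlap. Its log2 difference was -2.35 (SE 0.339, adjusted p = 0.0662), or 0.196 of the WT level. P4hb averaged 3179 ± 392 CPM in KO-NT and 1535 ± 150 CPM in WT-NT, again with no overlap. Its log2 difference was 1.08 (SE 0.239, adjusted p = 0.891). Among all genes tested, 3.27% had ranges that did not overlap between KO-NT and WT-NT. Arhgdia averaged 1344 ± 469 CPM in KO-NT and 709 ± 101 CPM in WT-NT, with a log2 difference of 0.96 (SE 0.29, adjusted p = 0.968), and KO-NT 4 lay inside the WT-NT range.

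Sirt7 was again the only gene called by edgeR in normal medium (0.00638%), with 0 of the 10 neighbours. At an unadjusted p under 0.05 stood 3 neighbours, against 4.2% of all genes. DESeq2 called 2 neighbours among 23 genes called in all, and limma-voom called 1 among 3. Pcyt2 was also called by edgeR when KO-GS 2 or KO-GS 3 was left out of the shared estimate of spread. Without KO-NT 4 and KO-GS 3, Pcyt2 fell by 2.16 (SE 0.163, adjusted p = 0.000432) and P4hb rose by 1.16 (SE 0.133, adjusted p = 0.017), a fold of 2.24. They were 2 of 4 genes called (0.0252%). The other 2 were Sirt7 and Zfp36l2, a gene outside the neighbourhood named here after its value was seen, which rose by 0.53 (adjusted p = 0.017). Arhgdia stood at 1.18 (SE 0.209, adjusted p = 0.202), a fold of 2.26.

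In glucose-free medium no neighbour passed the test. Pcyt2 averaged 10.45 ± 6.46 CPM in KO-GS and 15.91 ± 0.279 CPM in WT-GS (SD, n = 3 each), with a log2 difference of -0.64 (SE 0.376, adjusted p = 0.893). KO-GS 1 and 2 stood at 0.457 and 0.39 of the WT-GS mean, and KO-GS 3 at 1.12. Without KO-NT 4 and KO-GS 3 the log2 difference was -1.28 (SE 0.192, adjusted p = 0.312), and that fit called 1 gene, Sirt7 (0.0063%). P4hb averaged 2764 ± 1260 CPM in KO-GS and 2426 ± 145 CPM in WT-GS, with a log2 difference of 0.15 (SE 0.272, adjusted p = 0.939), and 0.46 without both libraries (SE 0.159, 95% interval 0.11 to 0.81, adjusted p = 1). Arhgdia averaged 801.3 ± 321 CPM in KO-GS and 551.3 ± 29.7 CPM in WT-GS, with a log2 difference of 0.51 (SE 0.333, adjusted p = 0.893), and 0.63 without both (SE 0.249, 95% interval 0.08 to 1.18, adjusted p = 1).

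Of the 15666 genes, 1 was called in glucose-free medium (0.00638%), again Sirt7, with 0 neighbours by edgeR, DESeq2 or limma-voom and 0 neighbours at an unadjusted p under 0.05 (3.88% of all genes). In the fit without KO-NT 4 and KO-GS 3, 3 neighbours, Pcyt2, P4hb and Arhgdia, had an unadjusted p under 0.05, against 2.19% of all genes. Slc25a10 was the one member whose ranges did not overlap in this medium, at 13.07, 15.44 and 17.53 CPM in KO-GS against 11.02, 12.96 and 12.89 CPM in WT-GS. Its log2 difference was 0.28 (SE 0.221, adjusted p = 0.893), and 10.8% of all genes had ranges that did not overlap there.

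The genes around the members give the setting. Within 25 RefSeq positions on either side of Sirt7, 42 other genes were in the table and 35 were tested. None was called over both media, and the median log2 difference was 0.03, against 0.01 over all genes tested. At an unadjusted p under 0.05 stood 5, against 2.54% of all genes tested, and outside the members 2 of 25. Besides Pcyt2, Arhgdia and P4hb, the 5 were Fam195b and Slc16a3, a monocarboxylate transporter. Fam195b lies between Slc25a10 and P4hb and had 49.43, 82.45 and 52.95 CPM in KO-GS and 102.00, 113.90, 102.60 and 51.28 CPM in KO-NT, against 44.36, 42.25 and 44.73 CPM in WT-GS and 54.07, 74.79, 50.39 and 55.81 CPM in WT-NT. As with Arhgdia, KO-NT 1 to 3 and KO-GS 2 stood above all WT libraries and the other 3 SirT7-/- libraries did not. Its log2 difference was 0.57 (SE 0.184, adjusted p = 1), and 0.72 (SE 0.139, adjusted p = 0.528) without KO-NT 4 and KO-GS 3. Its neighbours in the order, Gcgr and Ppp1r27, were at or near 0 and could not be tested. Nor could Npb, Mir6936 and Myadml2.

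On the Mafg side of Sirt7, Pycr1 and Notum were tested. Pycr1, an enzyme of proline synthesis, had a log2 difference of -0.06 (SE 0.153). Notum, which inactivates Wnt ligands, had 0.57 (SE 0.49) at levels of 0.2026 to 1.851 CPM. Both had an adjusted p of 1. Across the window, the differences of Alyref and Anapc11, 0.05 (SE 0.141) and -0.08 (SE 0.123), stood between the positive values of P4hb and Arhgdia and the negative value of Pcyt2.

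**Figure D2:**
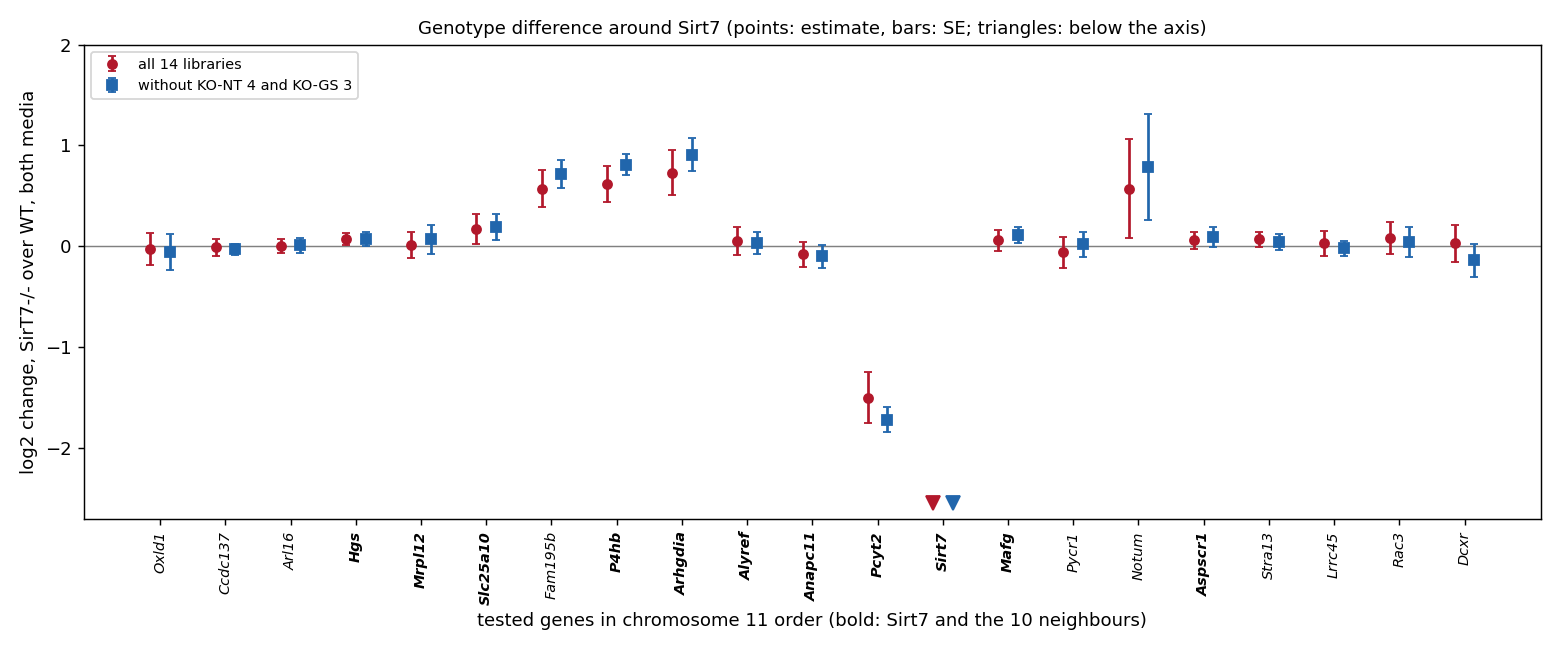
Log2 difference, SirT7-/- over WT averaged over both media (y axis), for the tested genes around Sirt7 in chromosome order (x axis, neighbours in bold). Points are estimates and bars SE, with all 14 libraries (circles) and without KO-NT 4 and KO-GS 3 (squares). Sirt7 lies below the axis, at -4.84 and -4.74. Pcyt2, at -1.50 and -1.72, is the lowest of the other genes, and Fam195b, P4hb and Arhgdia stand at 0.57 to 0.73 with all libraries.

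Library by library, P4hb and Arhgdia did not keep to one ratio. KO-GS 1 had 1.17 times the WT-GS mean of P4hb and 1.04 times that of Arhgdia, while KO-GS 2 had 1.64 and 2.12 times. KO-NT 4 had 1.69 times the WT-NT mean of P4hb and 0.908 times that of Arhgdia. In KO-NT 1 to 3 the ratios to the WT-NT mean were 2.18 to 2.22 for P4hb and 2.17 to 2.30 for Arhgdia. For Pcyt2 they were 0.211 to 0.233. Arhgdia was thus far apart in KO-GS 1 and KO-GS 2, at 574.7 and 1168 CPM, where Hspa5 stood at 6251 and 5654 CPM.

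**Figure D3:**
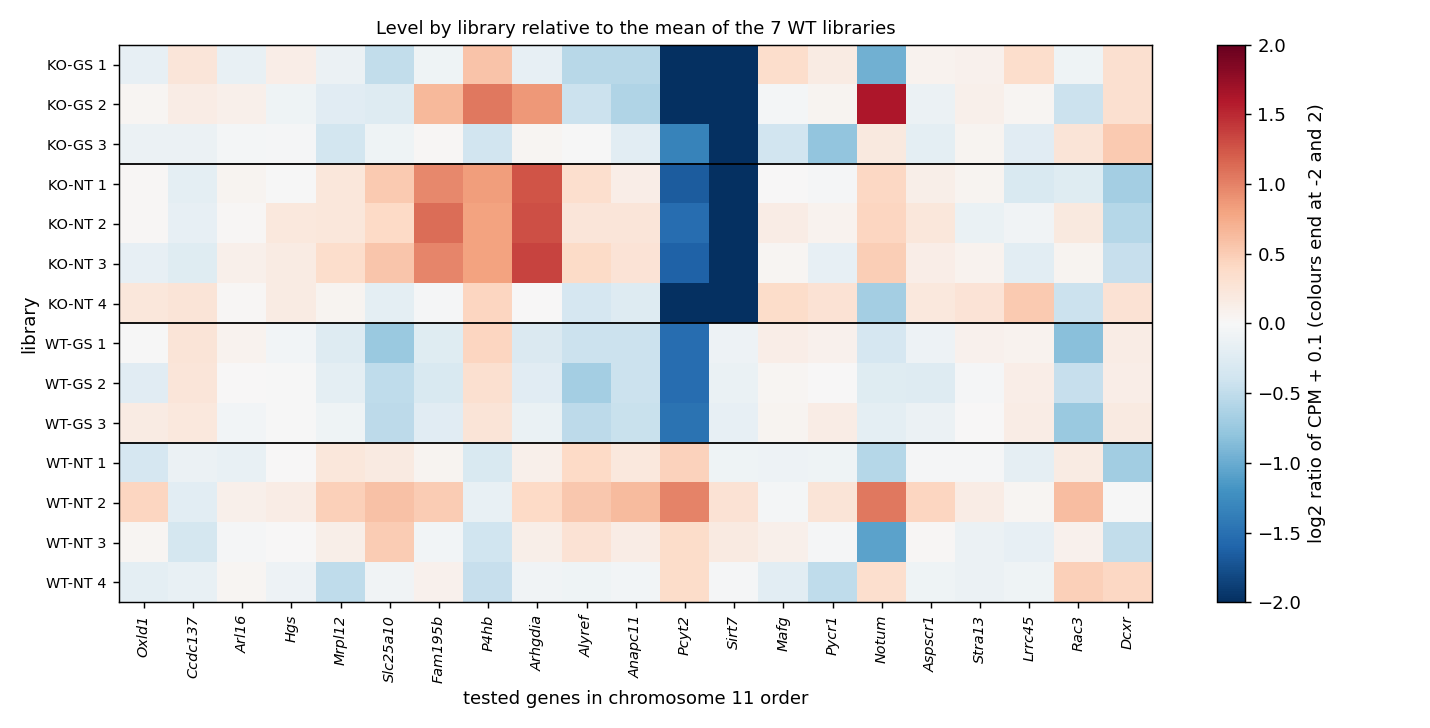
Level in each library (rows, by group) relative to the mean of the 7 WT libraries, as the log2 ratio of CPM + 0.1, for tested genes around Sirt7 (columns, chromosome order), with colours ending at -2 and 2. Sirt7 is low in all 7 SirT7-/- libraries, and Pcyt2 is low in these and in WT-GS. Fam195b, P4hb and Arhgdia are high together in KO-NT 1 to 3 and KO-GS 2.

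The response to glucose-free medium was then compared within each genotype. In SirT7-/- cells all 10 neighbours had negative log2 changes, and none passed edgeR's test with all libraries. No gene was called (0% of 15666), with 2919 genes (18.6%) at an unadjusted p under 0.05 and 255 called by DESeq2, while limma-voom called 0. Of the neighbours, 6 stood at an unadjusted p under 0.05 and 0 were called by any of these tools. The log2 changes in SirT7-/- cells were -0.77 for Arhgdia, -0.65 for Slc25a10, -0.59 for Anapc11, -0.52 for Alyref, -0.48 for Mrpl12 and -0.28 for Aspscr1, with adjusted p from 0.227 to 0.258. Those of Pcyt2, P4hb, Mafg and Hgs lay between -0.34 and -0.15. Mrpl12 and Aspscr1 were the members whose KO-GS and KO-NT ranges did not overlap, as 12.4% of all genes did not. The median change of the members was -0.41, against 0.01 over all genes tested.

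Without KO-NT 4 and KO-GS 3, 5 neighbours fell in starved SirT7-/- cells, where 33.1% of 15864 genes were called. KO-GS then held 2 libraries, which for Arhgdia stood at 574.7 and 1168 CPM. The log2 changes were -1.15 for Pcyt2 (SE 0.191, adjusted p = 0.0014), -0.87 for Slc25a10 (adjusted p = 0.0076), -0.85 for Arhgdia (adjusted p = 0.0274), -0.81 for Alyref (adjusted p = 0.00506) and -0.80 for Anapc11 (adjusted p = 0.00641). The change of Arhgdia had an SE of 0.258 and ran from -1.53 to -0.43 when a further library was left out. Leaving out KO-NT 4 alone gave 4 neighbours called, where 21.1% of 15628 genes were called. P4hb stood at 0.02 (SE 0.16, 95% interval -0.34 to 0.37).

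In WT cells 4 neighbours fell in glucose-free medium. WT starvation changed many genes: 4063 were called (25.9%), 2014 higher (12.9%) and 2049 lower (13.1%). Pcyt2 fell to 15.91 ± 0.279 CPM in WT-GS (n = 3), against 67.61 ± 15.5 CPM in WT-NT (n = 4), with a log2 change of -2.04 (adjusted p = 0.0245, SE 0.372). Slc25a10 averaged 12.29 ± 1.10 CPM in WT-GS and 23.21 ± 4.79 CPM in WT-NT, with a log2 change of -0.87 (adjusted p = 0.0245, SE 0.211). The head-to-head pair moved alike. Alyref averaged 30.95 ± 2.68 CPM in WT-GS and 55.42 ± 9.72 CPM in WT-NT, with a log2 change of -0.80 (adjusted p = 0.0247, SE 0.203). Anapc11 averaged 24.34 ± 0.116 CPM in WT-GS and 39.38 ± 8.42 CPM in WT-NT, with a log2 change of -0.65 (adjusted p = 0.0271, SE 0.177). For all 4 genes no WT-GS library reached the lowest WT-NT library. Ranges did not overlap for 7 of the 10 members, against 44.6% of all genes, and 5 members stood at an unadjusted p under 0.05, against 43.5%.

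P4hb was higher in every WT-GS library than in any WT-NT library, with a log2 change of 0.70 (SE 0.253, adjusted p = 0.0565). The fit without KO-NT 4 and KO-GS 3 called it (0.72, SE 0.133, adjusted p = 0.00178) and the 4 that fell, 5 neighbours in all, against 39.6% of 15864 genes. Mrpl12 (-0.25, SE 0.181), Arhgdia (-0.32, SE 0.313), Aspscr1 (-0.22, SE 0.122) and Mafg (0.17, SE 0.144) did not pass the test in WT cells, with adjusted p from 0.19 to 0.445. Hgs averaged 72.48 ± 1.47 CPM in WT-GS and 74.91 ± 5.52 CPM in WT-NT. The calls depended on single libraries, over all genes as well as the members. No gene at all was called without WT-GS 1, WT-GS 2 or WT-NT 3, and 1 without WT-GS 3. Among the members, 0 were called when any one of these 4 libraries was left out, 2 without WT-NT 1 (8.77% of all genes called), 3 without WT-NT 2 (13.2%) and 5 without WT-NT 4 (31.1%). Pcyt2 was called in 10 of the 14 fits that leave out a library, with log2 changes from -2.11 to -1.87 and adjusted p from 0.00319 to 0.0788.

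The difference between the genotypes' responses was tested as an interaction. No gene passed (0% of 15666), with 950 genes (6.06%) at an unadjusted p under 0.05, 5 called by DESeq2 and 0 by limma-voom. Pcyt2 had the largest value of the members, 1.70 (SE 0.498, adjusted p = 0.68), a smaller drop in SirT7-/- cells than in WT cells on the log2 scale. P4hb had -0.93 (SE 0.361, adjusted p = 0.68). These 2 were the neighbours at an unadjusted p under 0.05. Without KO-NT 4 and KO-GS 3, Pcyt2 stood at 0.88 (SE 0.238, 95% interval 0.35 to 1.41) and P4hb at -0.70 (SE 0.21, 95% interval -1.16 to -0.24), both with an adjusted p of 1. DESeq2 called 15 genes in that fit and no neighbour.

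**Figure D4:**
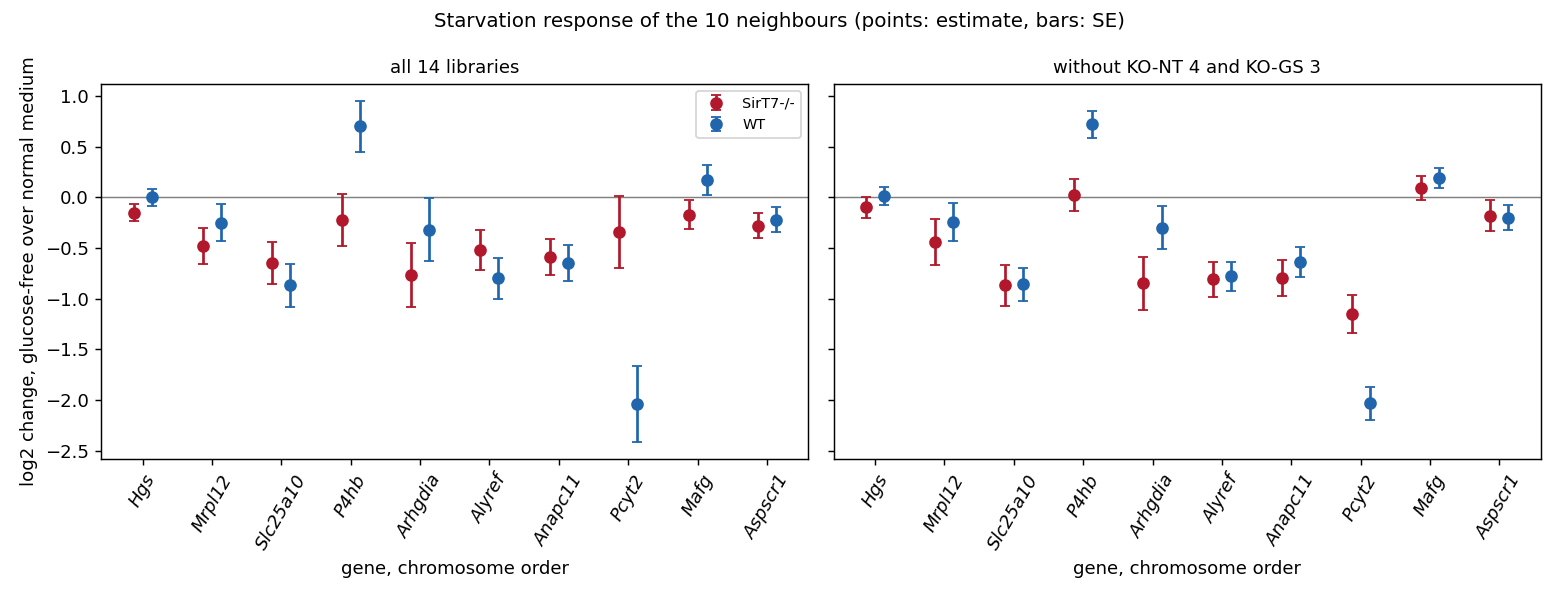
Log2 change, glucose-free over normal medium (y axis), for the 10 neighbours in chromosome order (x axis), in SirT7-/- and WT cells, with all 14 libraries (left) and without KO-NT 4 and KO-GS 3 (right). Points are estimates and bars are SE. In WT cells Pcyt2 lies lowest at -2.04 and P4hb highest at 0.70, and the SirT7-/- value of Pcyt2 is -0.34 with all libraries and -1.15 without the 2.

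Across the 4 groups, Pcyt2 was ordered with WT-NT highest, then WT-GS, KO-NT and KO-GS, and the lower 3 groups overlapped. P4hb was ordered KO-NT, KO-GS, WT-GS and WT-NT. KO-GS overlapped each of the others, and KO-NT, WT-GS and WT-NT did not overlap one another, although the lowest KO-NT value, 2592 CPM, stood beside the highest WT-GS value, 2585 CPM. Arhgdia was ordered KO-NT, KO-GS, WT-NT and WT-GS, and each group overlapped the next except WT-NT and WT-GS. Several of these statements rest on KO-GS 3 and KO-NT 4. Without them P4hb averaged 3412 CPM in KO-GS (2845 to 3980) and 3375 CPM in KO-NT (3348 to 3411), so that KO-GS came first, and neither SirT7-/- group overlapped a WT group. Without them KO-GS overlapped no other group for Pcyt2 (6.203 to 7.262 CPM). For Arhgdia, KO-NT (1537 to 1629 CPM) then stood clear of KO-GS (574.7 to 1168 CPM). KO-GS held 2 libraries there, and the share of all genes whose ranges part in that set was not counted. With all libraries, 10.8% of genes parted KO-GS from WT-GS, 3.27% KO-NT from WT-NT and 12.4% KO-GS from KO-NT.

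Mrpl12, Slc25a10, Alyref and Anapc11 had lower means in glucose-free than in normal medium in both genotypes. Mrpl12 averaged 45.62 ± 4.14 CPM in KO-GS, 62.36 ± 5.16 in KO-NT, 47.49 ± 2.99 in WT-GS and 58.32 ± 15.4 in WT-NT, where WT-NT 4 had 37.69 CPM, the lowest of all 14 libraries. Slc25a10 averaged 15.35 ± 2.23 CPM in KO-GS and 23.60 ± 5.10 in KO-NT. Alyref averaged 36.28 ± 7.44 CPM in KO-GS and 51.07 ± 10.5 in KO-NT, and Anapc11 24.13 ± 3.65 and 35.64 ± 5.56 CPM in the same groups. In Slc25a10, Alyref and Anapc11, KO-GS 3 was the highest KO-GS library and KO-NT 4 the lowest KO-NT library.

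The group means of Hgs, Mafg and Aspscr1 lay closest together in relative terms. Hgs ran from 68.91 to 85.30 CPM over all libraries. It averaged 74.31 ± 5.89 CPM in KO-GS and 81.04 ± 5.38 CPM in KO-NT. Mafg averaged 35.11 ± 9 CPM in KO-GS, 38.80 ± 4.52 in KO-NT, 36.70 ± 1.34 in WT-GS and 33.58 ± 3.08 in WT-NT, and the 4 groups overlapped although Mafg shares exonic sequence with Sirt7. Aspscr1 averaged 29.64 ± 2.91 CPM in KO-GS, 35.26 ± 1.39 in KO-NT, 28.14 ± 1.67 in WT-GS and 33.68 ± 5.85 in WT-NT. For Aspscr1 both starved groups lay below the normal-medium groups of their own genotype without overlap, and neither change passed the test (adjusted p of 0.258 in SirT7-/- cells and 0.19 in WT cells).

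**Figure D5:**
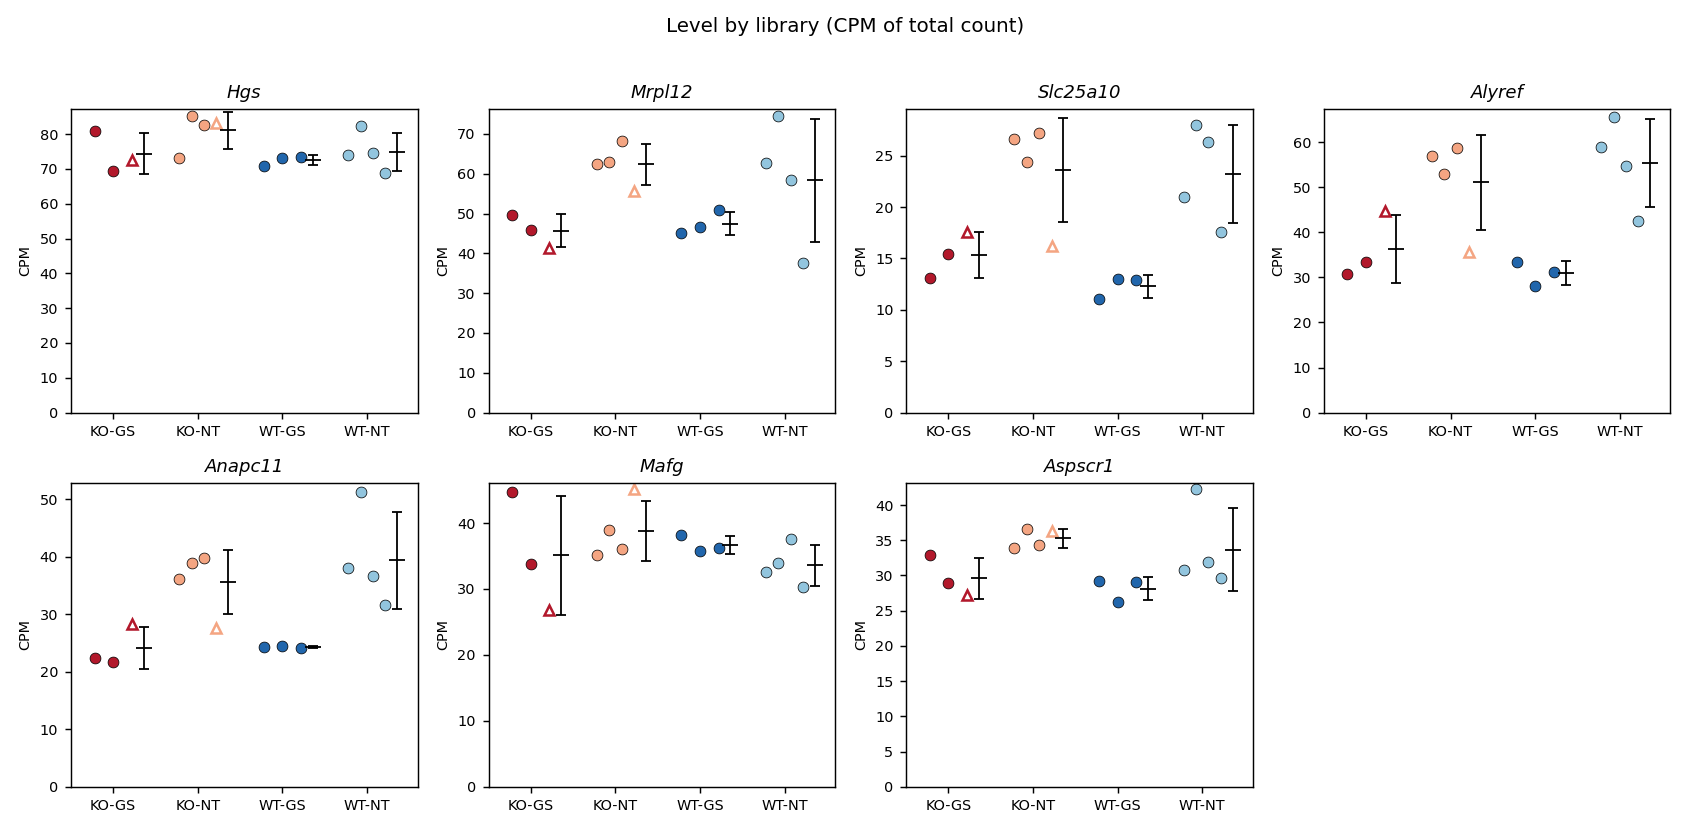
Level of the other 7 neighbours in CPM (y axis, from 0) in each library, by group (x axis). Points are libraries, bars are mean ± SD, and open triangles mark KO-GS 3 and KO-NT 4. Slc25a10, Alyref and Anapc11 are lower in WT-GS than in WT-NT, and Hgs stays between 68.91 and 85.30 CPM.

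Genes that work with the members other than Arhgdia were read from lists of partners. None of these partners was called by edgeR in a genotype comparison, in the interaction or in starved SirT7-/- cells with all libraries. The calls in starved WT cells are set here beside the 12.9% of genes called higher and 13.1% called lower, and beside the median log2 change over all genes tested, -0.04. The protein disulfide isomerase list of P4hb had 10 of 17 higher and 0 lower, with a median of 0.52. Dnajc10 rose by 0.78 (SE 0.186), Erp44 by 1.07 (SE 0.276), Pdia3 by 1.72 (SE 0.458) and Tmx1 by 0.34 (SE 0.092). These are thiol oxidoreductases of the endoplasmic reticulum, like P4hb. In the genotype comparison over both media the median of this list was -0.03, while P4hb itself stood at 0.62.

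The endosomal sorting list of Hgs had 7 of 19 higher and 0 lower in starved WT cells. Its partner Stam2 rose by 0.48 (SE 0.101), Vps37a by 0.60 (SE 0.128), Chmp3 by 0.55 (SE 0.125) and Chmp2b by 0.50 (SE 0.135). The anaphase-promoting complex list of Anapc11 had 1 of 18 higher and 6 lower, with a median of -0.28. The co-activators Fzr1 and Cdc20 fell by 1.09 (SE 0.22) and by 1.94 (SE 0.529), the ubiquitin-conjugating enzyme Ube2c fell by 0.93 (SE 0.271), and the core subunit Cdc27 rose by 0.32 (SE 0.089).

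For Pcyt2, the phospholipid list had 2 of 15 higher and 2 lower. Ept1, which uses the product of Pcyt2 to make phosphatidylethanolamine, rose by 0.57 (SE 0.12), and Etnk1, which makes its substrate phosphoethanolamine, fell by 0.72 (SE 0.219). The choline and ethanolamine kinase Chkb fell by 0.49 (SE 0.153), and Pemt, which turns phosphatidylethanolamine into phosphatidylcholine, rose by 0.85 (SE 0.266). The mitochondrial carrier list of Slc25a10 had 3 of 15 higher and 3 lower. There the phosphate carrier Slc25a3 rose by 0.51 (SE 0.123) and cytosolic malate dehydrogenase Mdh1 by 0.84 (SE 0.21), while the aspartate-glutamate carrier Slc25a12 (-0.79, SE 0.201) and the citrate carrier Slc25a1 (-1, SE 0.297) fell.

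The antioxidant list of Mafg had 5 of 17 higher and 3 lower. The other small MAF genes Maff and Mafk rose by 1.32 (SE 0.29) and by 1.57 (SE 0.38), Hmox1, which degrades heme, rose by 0.60 (SE 0.163), and G6pdx, of the pentose phosphate pathway, fell by 1.12 (SE 0.324). The mitochondrial ribosome and transcription list of Mrpl12 had 5 of 26 higher and 1 lower, among them the transcription factors Tfb2m (0.76, SE 0.132) and Tfam (0.39, SE 0.123) and the ribosomal protein Mrpl1 (0.59, SE 0.156), all higher.

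The GLUT4 and p97 list of Aspscr1 had 4 of 17 higher and 1 lower, with the p97 cofactors Ubxn2a (0.64, SE 0.155), Ufd1l (0.58, SE 0.142) and Faf1 (0.31, SE 0.0935) higher and Nsfl1c lower (-0.38, SE 0.126). The export list of Alyref had 2 of 18 higher and 1 lower, and its helicase partner Ddx39b fell by 0.52 (SE 0.15), while Fyttd1 (0.24, SE 0.079) and Sarnp (0.39, SE 0.134) rose. Without KO-NT 4 and KO-GS 3, the counts in starved SirT7-/- cells were 11 of 17 higher and 0 lower for the P4hb list, 7 of 19 higher and 0 lower for the Hgs list, 1 of 18 higher and 8 lower for the Anapc11 list and 4 of 15 higher and 3 lower for the Pcyt2 list. The Mrpl12 list had 3 of 26 higher and 5 lower in these cells, against 6 higher and 1 lower in starved WT cells in the same fit. The Alyref list had 1 of 18 higher and 4 lower, against 4 higher and 3 lower. No gene of these 2 lists was called in the interaction in that fit. In starved SirT7-/- cells the Slc25a10 list had 2 of 15 higher and 3 lower. The Mafg list had 4 of 17 higher and 4 lower and the Aspscr1 list 6 of 17 higher and 1 lower. Differences between the genotypes in these counts were not tested. In that fit 18.6% of genes were called higher and 14.5% lower.

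Among all genes in the 25-position window, 2 of 35 tested rose and 10 fell in starved WT cells, the 4 members included, against 12.9% higher and 13.1% lower over all genes. Outside the members, Fasn, the fatty acid synthase, fell (log2 change -1.23, SE 0.35), as did Cbr2 (-2.14, SE 0.607), Rac3 (-1.01, SE 0.233), Rfng (-0.47, SE 0.138), Mir6935 (-1.29, SE 0.374) and 2310003H01Rik (-1.02, SE 0.234). Ccdc137 rose (0.49, SE 0.12). Levels of Mir6935, annotated as a microRNA, were low, at 0.402 ± 0.0444 CPM in WT-GS and 1.02 ± 0.381 CPM in WT-NT.

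The genes whose levels ran most like Pcyt2 over the 14 libraries were Akr1b8, with a Pearson correlation of log2 CPM of 0.884, Cpxm1 with 0.878 and Ttc39c with 0.859, among 10305 genes compared. For Mafg they were Ptpru with 0.94, Trabd with 0.936 and Atxn2l with 0.931. None of these 6 genes lies on chromosome 11. The libraries differ in genotype, medium and depth, which bear on many genes at once, so the values only describe likeness.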

How the data were processed

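Total RNA was prepared with an Illumina TruSeq v2 kit, per the labels' protocols. The submitters' processing notes name build mm9 and the tools StringTie 1.3.3, HISAT2 2.1.0, DESeq2 1.18.1, Trimmomatic 0.36, FastQC 0.11.3 and SAMtools. The deposited table holds estimated counts per gene symbol, as whole numbers, in 14 libraries. StringTie derives such counts from coverage, so reads at overlapping genes may be split between them. Annotation and strand setting are not given in the sources used here.

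The fit used edgeR 4.0.16 under R 4.3.3 (quasi-likelihood F-test, robust dispersion, TMM, 1 mean per group over all 14 libraries) after filterByExpr (minimum count 10, minimum total 15), which left 15666 genes of 24015. A total of 4225 genes were at 0 throughout. P-values were adjusted by Benjamini-Hochberg over all genes tested. SEs were worked back from the F statistic, whose spread is shared by all libraries, and 95% intervals use its degrees of freedom. A count of 0 allows up to 3 counts, covering counting error only. Replicate libraries differed beyond sampling noise. The method was tested on simulated data for genotype over both media only, with the same spread for all genes and no library unlike its group.

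Alternatives were limma-voom (limma 3.58.1), DESeq2 1.42.0, RLE factors, no scaling beyond library size, a fit of the compared groups only, a replicate block, no filter on low counts, and a filter at 1 CPM in each library of any group with a mean of 50 counts. Each library was left out in turn, as were KO-NT 4 and KO-GS 3 together. The last was listed with earlier results known. Fits that combine it with other tools or with a further library left out were chosen after seeing the data.

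The members, the lists of partners, markers and motifs, and the naming rule were chosen with earlier results of these data known. The rule names all members and Sirt7, window genes that were called or lie between Hgs and Aspscr1, up to 4 called genes per partner list by p, and, because no member was called over both media, the 3 genes most correlated with each of Pcyt2 and Mafg (mean of at least 5 CPM). Fam195b and Slc16a3 also appear as genes under an unadjusted p of 0.05. Gene order came from RefSeq and GENCODE on GRCm38, another build than the counts, and served for order, strand, overlap and sequence only. Sequences are from RefSeq (GRCm38.p6). The partner list of Arhgdia and 1 gene of the window are not reported here.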

Additional observations from a re-analysis of the deposited data

Results flagged for a closer look

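For Sirt7 and the neighbours, 22 sets of 4 values were examined, 1 per gene in each of KO-NT and WT-NT. A library standing apart from the rest of its group was found in 3 of them. Chance gives about 1 in 20 for a single set. These sets come from the same libraries and are not independent, so their count cannot be compared with that rate. P4hb in KO-NT 4 was 2592 CPM, with the nearest KO-NT library at 3348 CPM, a gap of 0.924 of the group's range. Arhgdia in KO-NT 4 was 643.6 CPM, with the nearest at 1537 CPM, a gap of 0.907 of the range. In the same library the medium markers stood with glucose-free medium, at 6333 CPM of Hspa5 and 5.534 CPM of Txnip, and their part in the result was not tested. Pcyt2 in WT-NT 2 was 90.63 CPM, with the nearest WT-NT library at 62.75 CPM, a gap of 0.864 of the range.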

How the results depend on the processing

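Over both media, the count of neighbours called for genotype, 0 with all libraries, was 1 by DESeq2 and 2 without KO-NT 4 and KO-GS 3, and 0 to 1 with single libraries left out (1 without KO-GS 3). In normal medium it was 2 by DESeq2, 1 by limma-voom, 2 without both libraries, and 0 to 1 with single libraries left out (1 without KO-GS 2 or KO-GS 3). In glucose-free medium it was 0 under every alternative run on all libraries. Without both libraries it was 0 by edgeR (1 gene called in all) and 1 by DESeq2 (13 genes in all). Without both and a further library, some fits hold 1 KO-GS library, so log2 differences are given here. Over both media these were -1.77 to -1.62 for Pcyt2, 0.66 to 0.93 for P4hb and 0.58 to 1.12 for Arhgdia. In normal medium they were -2.23 to -1.97, 1.11 to 1.24 and 1.1 to 1.29, in the same order. In glucose-free medium Pcyt2 stood at -1.38 to -1.22 and P4hb at 0.15 to 0.69.

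In starved SirT7-/- cells, 5 neighbours were called with the replicate block and 5 without both libraries. With single libraries left out the count was 0 to 4 (4 without KO-NT 4), and without both libraries and a further one it was 3 to 6 (3 without KO-GS 1). In starved WT cells it was 4 to 5 under the other alternatives and 0 to 5 with single libraries left out. Whether the replicate numbers pair the libraries was not settled. After removal of group means, same-numbered libraries correlated at -0.172 to 0.511 over 19 pairs, 11 of them over 0.1. Libraries with different numbers were not compared in this way. The replicate block changed no other count of neighbours called. With it, 3096 genes were called in starved SirT7-/- cells, against 0, and 6633 in starved WT cells, against 4063.

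Signs turned for small values. P4hb in starved SirT7-/- cells, -0.22 with all libraries, was 0.02 without both libraries and -0.60 to 0.09 with single ones left out. Without both libraries it was -0.01 by DESeq2 and -0.32 to 0.24 with a further one left out. With single libraries left out, the genotype difference over both media was -0.07 to 0.08 for Mrpl12, -0.04 to 0.12 for Alyref and -0.04 to 0.14 for Mafg, and in glucose-free medium -0.23 to 0.45 for P4hb. Without both libraries and a further one, Arhgdia in glucose-free medium was -0.02 to 1.06. The direction of Pcyt2 held in the genotype comparisons under every alternative run. The causes were not tested.

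Over all genes, DESeq2 called 10 genes for genotype over both media, 23 in normal medium and 7 in glucose-free medium, against 1 each by edgeR, and 49, 122 and 13 without both libraries. In starved WT cells the count ran from 3369 without a filter to 6633 with the replicate block, and from 0 to 5621 with single libraries left out (0 or 1 without any one of WT-GS 1 to 3 or WT-NT 3). Genotype differences smaller than the 95% intervals given for each neighbour could not be resolved in these libraries.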
